A study of Mus musculus with 8 samples.

Results

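The integrated stress response genes downstream of the transcription factor ATF4 were followed in Paneth cells, the antimicrobial secretory cells at the base of the small intestinal crypts, in mice fed normal or zinc depleted food. The 10 genes Atf4, Atf5, Ddit3, Trib3, Chac1, Asns, Psat1, Phgdh, Sesn2 and Ppp1r15a were taken as a fixed list of gene symbols out of the 55414 Ensembl identifiers of the count table, and all 10 were among the 10911 genes that passed the expression filter. Cells of C57BL/6J mice were dissociated from small intestine and sorted by FACS. Of the 8 mice, 4 had received the standard diet (control) and 4 the zinc depleted diet (zinc deficient) for 7 weeks, with 1 bulk RNA-seq library per mouse. The labels give no age, name C57BL/6J as the genotype of all 8 mice and list no treatment besides the diet.

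The integrated stress response is a shared answer of cells to amino acid shortage, unfolded protein in the endoplasmic reticulum (ER), double-stranded RNA and heme shortage. Dedicated kinases phosphorylate the translation factor eIF2α, which lowers protein synthesis in general while it allows the mRNA of Atf4 to be translated. ATF4 protein then turns on genes for amino acid synthesis and import, other transcription factors and the feedback inhibitors that end the response. Because ATF4 is controlled largely at translation, the level of its mRNA is not a measure of its activity. Paneth cells carry a heavy secretory load, and the ER stress branch of this response is known for its role in their upkeep.

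ATF4 binds, with partners of the C/EBP family, a composite DNA element that can be written TGATGNAA, and the cAMP response element TGACGTCA is a related site of the wider factor family. Both were searched on both strands of the RefSeq promoter windows, which run from 250 bases before to 50 bases after an annotated start, and a match describes letters only. All 10 genes had a window (12 in all, since Atf5 and Psat1 have 2 each), and each window was found at 1 place in GRCm39. TGATGNAA occurred in the windows of Asns, Chac1 and Trib3, and in 3.97% of the 32851 windows of all genes. TGACGTCA occurred in the window of Ppp1r15a, and in 1.79% of all windows. The matches of these 4 genes are shown with 11 bases on either side, 5′ to 3′ on the strand of the gene and with the motif in capitals, because ATF4 is known to act on its targets through elements of this kind. In Chac1 and Trib3 the motif lies on the opposite strand and is read as its reverse complement.
Asns: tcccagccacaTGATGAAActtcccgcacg
Chac1: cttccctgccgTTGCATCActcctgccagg
Trib3: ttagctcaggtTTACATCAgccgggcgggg
Ppp1r15a: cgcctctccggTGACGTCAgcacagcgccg
On GRCm39 these stretches are chr6:7693214-7693243 (minus strand) for Asns, chr2:119181519-119181548 (plus strand) for Chac1, chr2:152185948-152185977 (minus strand) for Trib3 and chr7:45175686-45175715 (minus strand) for Ppp1r15a. The motif begins 23 bases upstream of the RefSeq start in Asns, 193 upstream in Chac1 and 12 upstream in Ppp1r15a, whereas in Trib3 it begins 14 bases downstream of it. In GENCODE M39 each of the 4 stretches overlaps an untranslated exon part of the same gene. The other 6 genes hold neither string of letters in their windows.

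Total counts were between 8557690 and 12648005 per mouse, and 3 counts, the limit that a count of 0 allows, correspond to 0.237 to 0.351 CPM (counts of a gene for each 1000000 counts of the library). Unless stated otherwise, levels are CPM scaled by TMM, a normalization that sets the bulk of genes equal between libraries. Its factors ran from 0.719 (zinc deficient replicate 2) to 1.57 (control replicate 1), a spread that matters here: scaling by library size alone moved the median log2 fold change of all genes from -0.01 to -0.37, so diet differences are to be read relative to the bulk of genes. The label was checked on 10 Paneth cell markers, all of which passed the filter, and the α-defensin genes made up 35.7% to 50.9% of each library. Of 8 stromal and vessel markers 0 passed the filter, and Col1a1, Col3a1, Acta2, Cdh5 and Dcn had no count in any mouse. The immune markers Cd3e, Cd8a and Itgax and the erythroid markers Hba-a2 and Alas2 had none either. Of the 8 immune markers 2 passed the filter, Lyz2 with 14.7 to 51.7 CPM and H2-Ab1 with 5.24 to 28.0 CPM. All 8 enterocyte markers passed it, with a summed level of 271 to 437 CPM, of which Vil1 made up 169 to 240 CPM. All 10 Paneth cell markers had a log2 fold change above 0 (median 0.45, none called), and in bulk samples fewer cells of a type and less RNA per cell cannot be told apart. The summed level of these markers was 295540 CPM in control replicate 1 and 456539 to 609011 CPM in the other control mice. In the zinc deficient mice it was 478269 to 848121 CPM, highest in replicate 2. The part of this difference in the values of the 10 genes was not tested.

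None of the 10 genes differed between the diets at an adjusted p under 0.05 in edgeR's quasi-likelihood test. Over all genes tested, 44 of 10911 passed, or 0.403%. At an unadjusted p under 0.05 there were 2 genes of the 10, Psat1 and Sesn2, against 10.5% of all genes, and DESeq2 called 1 of the 10, Psat1, against 134 (1.06%) of the 12619 genes to which it gave an adjusted p. The values of the 2 diets overlapped for each of the 10 genes, whereas they were separate for 6.09% of all genes. The fitted log2 fold change was above 0 for 7 of the 10 genes, against 49.3% of all genes, with a median of 0.14 against -0.01. With library size as the only scaling 2 of the 10 were above 0, and the median was -0.24, against -0.37 for all genes. With 1 mouse left out, 6 to 8 were above 0, and the median was 0.04 without zinc deficient replicate 1, 0.06 without control replicate 3, 0.25 without control replicate 1 or zinc deficient replicate 2, and 0.28 without control replicate 2.

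**Figure D1:**
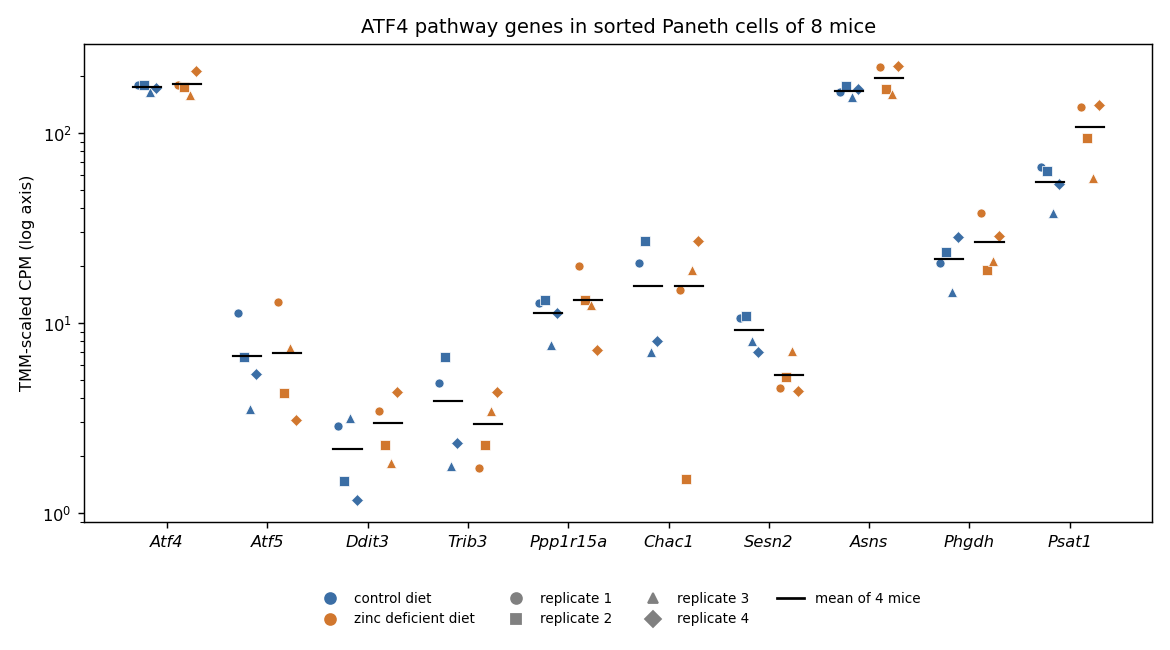
TMM-scaled CPM (log axis) of the 10 genes in each of the 8 mice, blue for the control diet and orange for the zinc deficient diet, with symbols for replicates 1 to 4 and a bar at the mean of 4 mice. Atf4 and Asns vary little among the mice, Chac1 spreads from 1.52 to 27.05, and for every gene the 2 diets overlap.

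**Figure D2:**
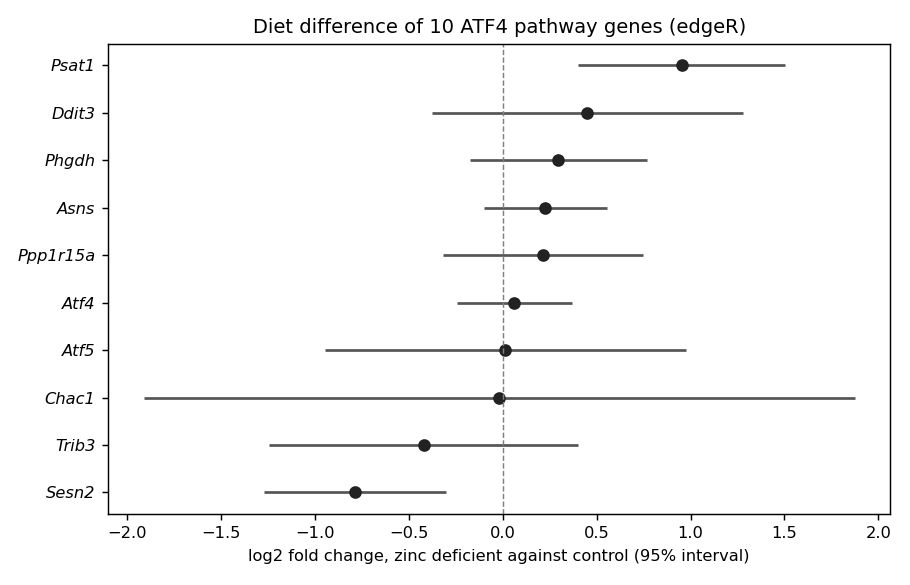
Fitted log2 fold change of each gene, zinc deficient against control (points), with 95% intervals (lines) from edgeR on 4 mice per diet and a dashed line at 0. The intervals of Psat1 (0.40 to 1.50) and Sesn2 (-1.27 to -0.30) leave out 0 before adjustment over all genes, and that of Chac1 is the widest of the 10.

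Atf4 mRNA, which encodes the central factor (ENSMUSG00000042406; GRCm39 chromosome 15, 80139372 to 80141745, plus strand), was abundant and even. In the control mice it stood at 178, 179, 164 and 172 CPM in replicates 1 to 4, and in the zinc deficient mice at 179, 174, 159 and 212 CPM. Apart from zinc deficient replicate 4, which was highest, the mice of both diets covered the same narrow range. The means were 173 ± 7.30 and 181 ± 22.5 CPM (SD, n = 4 each), and the log2 fold change was 0.06 with a standard error of 0.15 (adjusted p = 0.928). Under TMM scaling the 95% interval of the ratio was 0.843 to 1.29, and with library size as the only scaling the log2 fold change was -0.32.

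Atf5 encodes a further bZIP factor of the response, whose mRNA is likewise translated under stress (ENSMUSG00000038539; chromosome 7, 44461680 to 44466082, minus strand). It was low and uneven: 11.3, 6.64, 3.53 and 5.40 CPM in the control mice, and 12.9, 4.29, 7.42 and 3.09 CPM in the zinc deficient mice. Each diet held 1 mouse above 11 CPM and 1 below 4 CPM, and the diets covered almost the same range. Between diets the log2 fold change was 0.01 (95% interval -0.95 to 0.97, adjusted p = 0.996). The first 729 bases of its gene record lie within the records of Nup62 and Il4i1 on the opposite strand, and since the strand setting of the counting is not given, reads there are uncertain.

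Ddit3, which encodes CHOP, the factor linked to cell death when stress persists (ENSMUSG00000025408; chromosome 10, 127124268 to 127132163, plus strand), was thinly counted. It had 11 to 53 counts per mouse, which gave 2.86, 1.48, 3.15 and 1.16 CPM in the control mice and 3.45, 2.27, 1.83 and 4.30 CPM in the zinc deficient mice. Zinc deficient replicates 1 and 4 lay above every control, and replicates 2 and 3 were within the control range. Zinc deficient against control, the log2 fold change was 0.45 (95% interval -0.38 to 1.28, adjusted p = 0.755). The level itself is uncertain, because a second record named Ddit3 (ENSMUSG00000116429) shares 2925 bases with it on the same strand and held 0 counts in all mice. How reads that fit both records were counted is not given, and the Mars1 record also covers 3820 bases of it on the opposite strand.

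Trib3 encodes a pseudokinase that restrains ATF4 and CHOP (ENSMUSG00000032715; chromosome 2, 152179337 to 152191958, minus strand). The control mice had 4.80, 6.64, 1.76 and 2.33 CPM and the zinc deficient mice 1.73, 2.27, 3.43 and 4.30 CPM. The split ran within the control mice, where replicates 1 and 2 were above replicates 3 and 4, more than between the diets. This gave a log2 fold change of -0.42 (95% interval -1.24 to 0.40, adjusted p = 0.770).

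Ppp1r15a encodes GADD34, the phosphatase subunit that removes the phosphate from eIF2α and so lets translation resume (ENSMUSG00000040435; chromosome 7, 45172340 to 45175692, minus strand). It had 12.7, 13.1, 7.69 and 11.3 CPM in the control mice and 19.9, 13.3, 12.4 and 7.20 CPM in the zinc deficient mice. Both the highest and the lowest of the 8 values were from zinc deficient mice, replicates 1 and 4. With such a spread the log2 fold change was 0.22 (95% interval -0.32 to 0.75, adjusted p = 0.828).

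Chac1 encodes an enzyme that degrades glutathione and is among the most responsive known targets of ATF4 (ENSMUSG00000027313; chromosome 2, 119180757 to 119184866, plus strand). It varied most between mice. The control mice had 20.5, 27.05, 7.06 and 8.05 CPM, and the zinc deficient mice 14.9, 1.52, 18.9 and 26.8 CPM. Zinc deficient replicate 2 was the lowest of all with 12 counts, against 56 or more in each other mouse, and the highest mouse stood 17.8-fold above it. The diet means of 15.7 ± 9.76 and 15.5 ± 10.6 CPM (SD, n = 4 each) were nearly equal, with a log2 fold change of -0.02 (adjusted p = 0.996). The 95% interval of the ratio ran from 0.266 to 3.67, so ratios across this wide range are compatible with the values of these mice.

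Sesn2 encodes sestrin 2, a leucine sensor that holds back mTORC1 (ENSMUSG00000028893; chromosome 4, 132219335 to 132237815, minus strand). The control mice had 10.6, 10.9, 8.07 and 6.99 CPM, and the zinc deficient mice 4.53, 5.18, 7.10 and 4.40 CPM. Of the zinc deficient mice, 3 lay below every control and replicate 3 lay between control replicates 4 and 3. The means were 9.15 ± 1.92 and 5.30 ± 1.25 CPM (SD, n = 4 each), and the log2 fold change was -0.79 with a standard error of 0.23, a ratio of 0.579 (95% interval 0.414 to 0.810). The adjusted p was 0.183, so the difference did not pass the threshold over all genes, and it passed under none of the alternatives run, where the adjusted p was between 0.0781 and 0.528.

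The 10 genes include 3 enzymes of amino acid synthesis, Asns, Phgdh and Psat1. Asns encodes asparagine synthetase, the classic ATF4 target (ENSMUSG00000029752; chromosome 6, 7671667 to 7728461, minus strand). It had 165, 175, 154 and 170 CPM in the control mice and 221, 169, 161 and 226 CPM in the zinc deficient mice. Zinc deficient replicates 1 and 4 lay above all controls, while replicates 2 and 3 were within their range. For Asns the log2 fold change was 0.23 (95% interval -0.10 to 0.56, adjusted p = 0.672).

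Phgdh encodes the first enzyme of serine synthesis from glycolysis (ENSMUSG00000053398; chromosome 3, 98220484 to 98255047, minus strand). The control mice had 20.6, 23.7, 14.5 and 28.2 CPM, and the zinc deficient mice 38.1, 19.1, 21.1 and 28.7 CPM. The ranges overlapped widely. For Phgdh the log2 fold change was 0.30 (95% interval -0.18 to 0.77, adjusted p = 0.703).

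Psat1 encodes the second enzyme of this route (ENSMUSG00000024640; chromosome 19, 15882039 to 15924701, minus strand) and had the largest log2 fold change of the 10 genes. The control mice had 66.0, 62.9, 38.1 and 54.1 CPM, and the zinc deficient mice 136, 94.5, 58.1 and 141 CPM. Zinc deficient replicates 1, 2 and 4 lay above every control mouse, whereas replicate 3 was inside the control range. The means were 55.3 ± 12.5 and 107 ± 38.9 CPM (SD, n = 4 each), with a log2 fold change of 0.95 and a standard error of 0.26, a ratio of 1.94 (95% interval 1.32 to 2.84). The adjusted p was 0.161 in edgeR. Psat1 was called when zinc deficient replicate 3 was left out (adjusted p = 0.0140) and in DESeq2 (adjusted p = 0.0131). It was also called with replicate number as a block (adjusted p = 0.0111) and without the expression filter (adjusted p = 6.13e-06). It was not called when any other mouse was left out (adjusted p of 0.212 to 0.432). With library size as the only scaling its log2 fold change was 0.52 (adjusted p = 0.392).

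Psph, which encodes the third and last enzyme of serine synthesis, is not one of the 10 genes but had a like split among the zinc deficient mice. It had 7.55, 7.21, 6.18 and 7.83 CPM in the control mice and 16.3, 15.9, 5.34 and 17.8 CPM in the zinc deficient mice, so that replicates 1, 2 and 4 lay above every control and replicate 3 below them. The log2 fold change was 0.93 with a standard error of 0.29 (adjusted p = 0.220), and without zinc deficient replicate 3 it was 1.21 (adjusted p = 0.00877). With any other mouse left out it was 0.78 to 0.97 and Psph was not called (adjusted p of 0.312 to 0.529). With library size as the only scaling it was 0.50 (adjusted p = 0.411). Shmt1, which encodes the cytosolic enzyme that interconverts serine and glycine, had values on the other side: 19.0, 17.9, 18.9 and 22.3 CPM against 15.3, 10.99, 7.82 and 9.54 CPM. Its diets did not overlap, and its log2 fold change was -0.85 with a standard error of 0.20 (adjusted p = 0.0741, and 0.0243 in DESeq2).

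**Figure D3:**
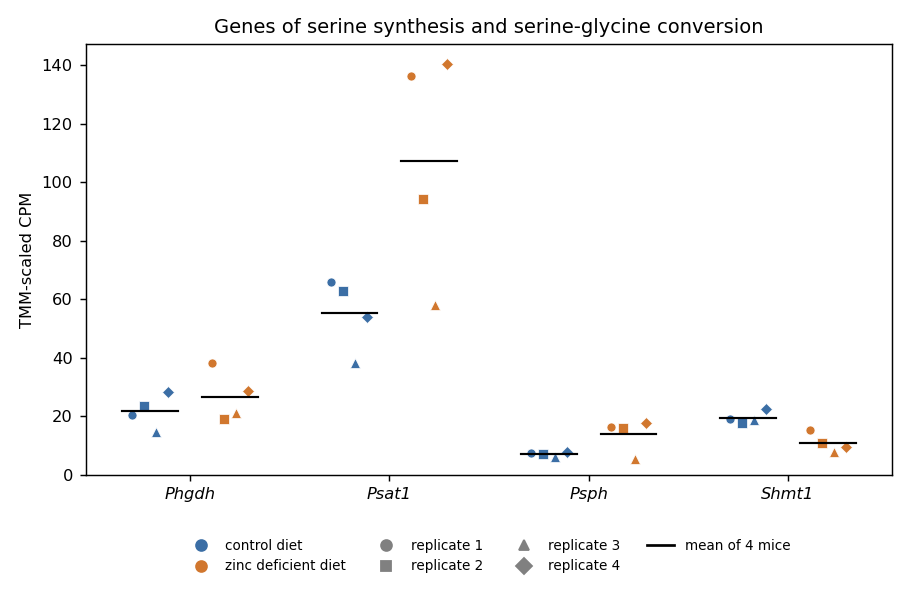
TMM-scaled CPM (axis from 0) of Phgdh, Psat1 and Psph, the 3 steps of serine synthesis in order, and of Shmt1, in each mouse, with colours for diets, symbols for replicates and bars at the mean of 4 mice. For Psat1 and Psph, zinc deficient replicates 1, 2 and 4 lie above all controls and replicate 3 does not, while Shmt1 is lower in all 4 zinc deficient mice.

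Markers of other cells differed between some of these mice. Zinc deficient replicate 3 had a summed level of 398 CPM over 8 tuft cell markers, against 20.7 to 68.3 CPM in the other zinc deficient mice and 38.5 to 98.0 CPM in the control mice. Of those markers 7 were tested and 0 called, although all 7 log2 fold changes were above 0, and Il25 had at most 3 counts in any mouse. The 8 stem and transit amplifying cell markers all had a log2 fold change below 0 and 2 were called (Top2a, a DNA topoisomerase, and Mcm6, a replicative helicase subunit). Their summed level was 1414 to 2001 CPM in the control mice and 621 to 1184 CPM in the zinc deficient mice, and none was at 0. The part of these markers in the values of Psat1, Psph, Shmt1 and Sesn2 was not tested.

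The mice of a diet differed from one another in several of the 10 genes by more than is usual at these levels. The spread was taken as the SD of log2(CPM + 1) within diets and set against the genes tested whose mean level was within 2-fold. For Chac1 this SD was 1.27, larger than that of 99.8% of 4497 such genes, whose median SD was 0.24. Atf5 (SD 0.70) exceeded 98.5% of its comparators and Psat1 (0.48) 97.5%. Phgdh, Ppp1r15a and Trib3 exceeded 94.96%, 94.7% and 94.5%. In contrast, Ddit3 was at 75.8%, Sesn2 at 47.2%, Asns at 37.9% and Atf4 at 15.8%. Under TMM scaling the mRNA of the central factor was thus steadier than most genes of its level, and the spread was not computed under another scaling. The number of the 10 genes above 90% was 6 with all mice and 4 to 6 with any 1 mouse left out. It was 4 without zinc deficient replicate 1, and 5 without control replicate 2 or 3 or zinc deficient replicate 3 or 4. Counting error is part of this SD and is larger in genes of lower count.

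**Figure D4:**
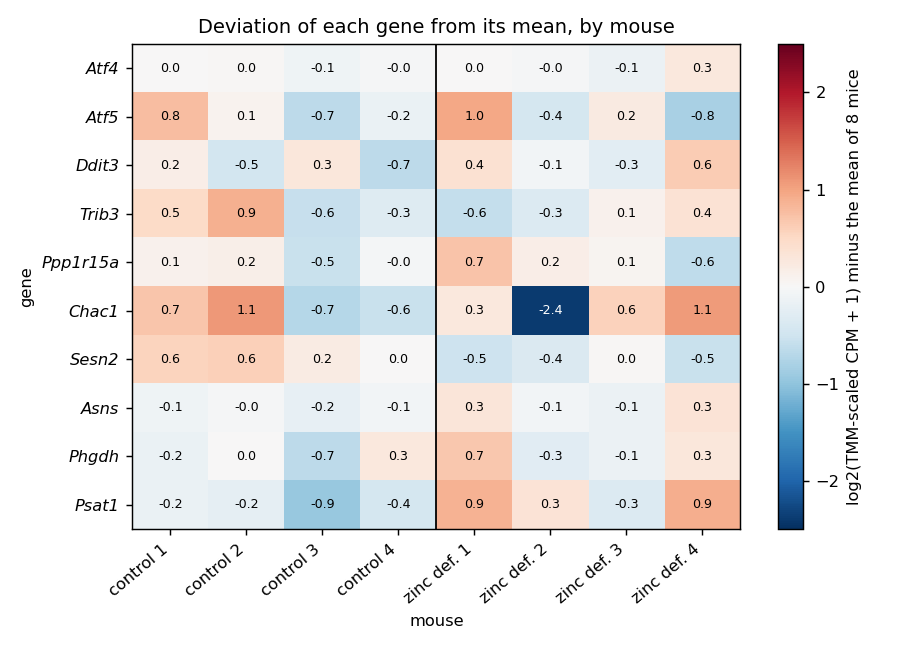
Heat map of log2(TMM-scaled CPM + 1) minus the mean of the 8 mice for each gene (rows) and mouse (columns), red above and blue below the mean, with the control mice left of the line. The lowest cell is Chac1 in zinc deficient replicate 2 (-2.4), the row of Atf4 stays within 0.3 of its mean, and the high cells of different genes fall in different mice.

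The genes did not rise and fall as 1 block across the mice. Control replicate 3 was the lowest control for Atf4, Atf5, Trib3, Ppp1r15a, Chac1, Asns, Phgdh and Psat1, 8 of the 10 genes. Among the zinc deficient mice, replicate 4 was highest for Atf4, Ddit3, Trib3, Chac1, Asns and Psat1 but lowest for Atf5, Ppp1r15a and Sesn2. Replicate 1 was highest for Atf5, Phgdh and Ppp1r15a and lowest for Trib3. Chac1 and Trib3, both of which carry the TGATGNAA string near their start, were each highest in control replicate 2. Sesn2, which carries neither string in its window, was also highest in that mouse. For Chac1 zinc deficient replicate 4 was nearly as high (26.8 against 27.05 CPM). Asns, which carries TGATGNAA too, varied by only 1.46-fold between the highest and the lowest mouse. The part of these strings in the levels was not tested.

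Levels of different genes can be compared only per length, and for this purpose counts were divided by the length of the Ensembl canonical transcript and scaled to a sum of 1000000 per mouse (TPM). Over the 8 mice, Atf4 had 75.2 ± 25.9 TPM (SD, n = 8), Asns 26.9 ± 8.26, Psat1 21.9 ± 9.46 and Phgdh 9.35 ± 3.40. They were followed by Chac1 with 7.56 ± 5.51 TPM, Ppp1r15a with 3.91 ± 1.83 and Atf5 with 3.04 ± 2.38. Ddit3 (1.92 ± 0.971 TPM), Sesn2 (1.66 ± 1.12) and Trib3 (1.31 ± 0.991) closed the order. In TPM, Atf4 exceeded Asns in 8 of 8 mice, and Psat1 exceeded Phgdh in 8 of 8 mice, whereas Asns exceeded Psat1 in 5, Phgdh exceeded Chac1 in 4 and Ddit3 exceeded Sesn2 in 4 of 8 mice. With summed exon lengths in place of the canonical transcript, the first 7 genes kept their order and Ddit3, whose summed exons are much longer, moved from place 8 to place 10. These values are not TMM-scaled and were not used to compare the diets.

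The other genes of the pathway were described by 7 lists with 107 genes in all, of which 100 passed the filter. None of the 100 was called between the diets in edgeR, 7 had an unadjusted p under 0.05 (against 10.5% of all genes), and DESeq2 called 1, Shmt1 (against 1.06%). The diets did not overlap for 2 of them, Atf3 and Shmt1, against 6.09% of all genes, so by each of these counts the 100 genes did not exceed the background. By direction, however, 67 of the 100 genes had a log2 fold change above 0, against 49.3% of all genes. Their median was 0.08, against -0.01. With library size as the only scaling the median of every list was below 0, between -0.37 and -0.13, where that of all genes was -0.37. The share above 0 also depended on zinc deficient replicate 4. Without that mouse, 7 of 20 aminoacyl-tRNA synthetases were above 0 (14 with all mice). Of the 17 ATF6 and XBP1 targets, 10 were above 0 (16 with all mice), while the counts of the other lists changed little.

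Upstream, the list of eIF2 kinases and eIF2 factors had 16 of 16 genes tested and log2 fold changes between -0.30 (Impact, an inhibitor of the kinase GCN2) and 0.39 (Eif2s2, the β subunit of eIF2, adjusted p = 0.365), with a median of 0.05. Next to these ends were Eif2s3x (-0.19), the X-linked γ subunit, and the adaptor Nck1 (0.30). Among bZIP partners and other regulators, 12 of 14 were tested. Atf3, a stress-induced bZIP factor, had 1.06 to 1.40 CPM in the control mice and 1.83 to 3.41 CPM in the zinc deficient mice, with a log2 fold change of 0.95 (standard error 0.38, adjusted p = 0.364). Nupr1, a small stress-induced chromatin protein, had 259 to 328 CPM and 304 to 582 CPM (log2 fold change 0.50, adjusted p = 0.370). The lowest values of that list were those of Nfe2l2 (-0.28), which encodes the antioxidant regulator NRF2, and Cebpa (-0.23), a C/EBP factor.

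Downstream, 13 of 14 genes of amino acid synthesis and one-carbon metabolism were tested (median 0.07), with Psph at the upper end and Shmt1 and Aldh1l2 (-0.25, a mitochondrial folate enzyme) at the lower end. Among 10 tested amino acid transporters the log2 fold change ran from -0.35 for Slc38a2, a carrier of small neutral amino acids, to 0.52 for Slc6a9, a glycine carrier (adjusted p = 0.660), with a median of 0.15. Slc7a5 (-0.11) and Slc3a2 (0.25), which encode the light and heavy chains of the leucine carrier LAT1, were next to these ends. The medians of both lists depended on single mice. That of amino acid synthesis was -0.14 without zinc deficient replicate 1 and also below 0 without control replicate 2 or 3. That of the transporters was -0.059 when zinc deficient replicate 1 was left out, -0.058 when replicate 4 of that diet was, and 0.0088 when control replicate 3 was. All 20 cytosolic aminoacyl-tRNA synthetases were tested, and they lay closest together, from -0.11 (Qars1) to 0.29 (Wars1, adjusted p = 0.527), with 14 above 0 and a median of 0.06, next to Tars1 (-0.04) and Sars1 (0.16). Without zinc deficient replicate 4, 7 of the 20 were above 0 and the median was -0.04. With any other mouse left out, 10 to 19 were above 0 and the median was 0.01 to 0.15. Of 15 secreted and other stress targets, 12 were tested, from -0.56 for the pro-apoptotic Bbc3 to 0.54 for Ero1a, an ER oxidase (adjusted p = 0.207). Vldlr, a lipoprotein receptor, was at -0.16 and Herpud1, of ER-associated degradation, at 0.26. The hormone gene Fgf21, a known secreted target, did not pass the filter, with 0 to 6 counts in the control mice and 0 counts in each zinc deficient mouse, which allows up to 3 counts per library.

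The 17 targets and sensors of the ATF6 and XBP1 branches of the unfolded protein response, a neighbouring arm of ER stress signalling, had 16 log2 fold changes above 0 and a median of 0.19. The highest were Creld2 (0.77, adjusted p = 0.598) and Sdf2l1 (0.59, adjusted p = 0.741), both ER luminal proteins, and the lowest were Xbp1 (-0.03) and Ern2 (0.00). None was called. Their summed level was 2599 to 3903 CPM in the control mice and 2764 to 5459 CPM in the zinc deficient mice. With library size as the only scaling 7 of the 17 were above 0, and the median was -0.13, against -0.37 for all genes. Leaving out any mouse but zinc deficient replicate 4 kept 15 or 16 of the 17 above 0 under TMM scaling. The median was then 0.17 to 0.33. Zinc deficient replicate 4 had the highest sum, and without it 10 of the 17 were above 0 and the median was 0.04. The same mouse had the highest summed level of 8 goblet cell markers, 14343 CPM, against 7679 to 10756 CPM in the other zinc deficient mice and 4641 to 11270 CPM in the control mice. All 8 of these markers were tested and 0 called, with 6 log2 fold changes above 0, and no marker had a level of 0 in any mouse. Muc2, the main mucin of goblet cells, named here after its values were seen, had 2433 CPM in that mouse and 320 to 919 CPM in the other 7. Clca1, Agr2, Spink4 and Spdef were also highest in that mouse, and Spink4 alone stood at 9171 CPM. Other markers of the list went the other way. Fcgbp (111 CPM) and Zg16 (0.374 CPM, 4 counts) were lowest there, and Tff3 (692 CPM) was the lowest of that diet. Zinc deficient replicate 2 was nearly as low, with 115 CPM for Fcgbp and 0.379 CPM (3 counts) for Zg16. The part of the goblet cell markers in the values of the ATF6 and XBP1 targets was not tested.

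**Figure D5:**
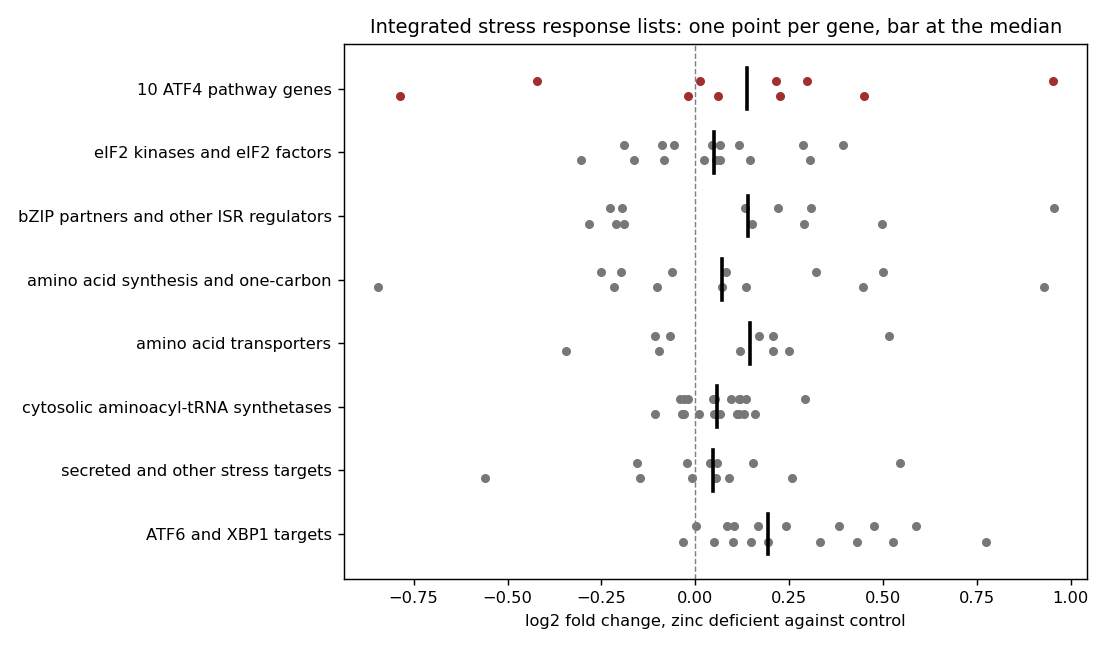
Log2 fold change (zinc deficient against control, edgeR) of every tested gene of the 10 ATF4 pathway genes (red) and of 7 further lists (grey), 1 point per gene, with a black bar at the median of each list and a dashed line at 0. All medians lie between 0.05 and 0.19, and the genes farthest from 0 are Psat1 and Sesn2 in the first list, Atf3, Shmt1 and Psph.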

How the data were processed

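Libraries were prepared from RNA of FACS-sorted Paneth cells with a stranded TruSeq mRNA kit. The authors deposited raw, unnormalized counts for each Ensembl gene identifier. The submitters' processing notes name mm39, FastQC 0.12.0, STAR 2.7.0a and DESeq2; for the counting, the program, strand setting and annotation were not given in the sources used here. Table columns were matched to samples by diet and replicate number. Identifiers were named with GENCODE M39 on GRCm39 (54749 of 55414 found). Where 2 identifiers share a symbol, the one with more counts carries it.

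The comparison of diets used edgeR 4.0.16 under R 4.3.3 (filterByExpr, TMM, robust quasi-likelihood test, Benjamini-Hochberg adjustment over 10911 genes, threshold 0.05, two-sided). Standard errors and 95% intervals come from that test. P-values measure the spread between mice, 1 library each. Replicate libraries differed by more than sampling noise (chi-square divided by degrees of freedom, 5.70 to 59.3). The edgeR step was tested on simulated data.

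Alternatives were DESeq2 1.42.0, its size factors, library size only, α-defensin genes left out of the scaling (added after seeing the data), no filter, no robust option, a replicate block and each mouse left out. TPM by canonical transcript and the spread with each mouse left out were also added after seeing the data. Promoter windows are from RefSeq (GRCm38.p6) and were placed on GRCm39 by exact match. The genes and lists were chosen with earlier results of these data known. The text names all 10 genes, the 2 highest and 2 lowest log2 fold changes of each pathway list, and of each list any gene called and the cell markers at 0. Some genes that this rule names are not reported here. Python 3.11.15 and matplotlib 3.10.9 were used for other steps.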

Additional observations from a re-analysis of the deposited data

How the results depend on the processing

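The number of the 10 genes called was 0 in the reported fit, 1 (Psat1) with no filter, with the replicate block and with DESeq2, and 0 to 1 with 1 mouse left out. Of the 107 list genes, 0 were called in the reported fit, 2 (Psph and Shmt1) with no filter, 1 (Shmt1) with DESeq2, and 0 to 1 with 1 mouse left out (Shmt1 without zinc deficient replicate 1, Psph without zinc deficient replicate 3). Over all genes 44 were called, but 11 with library size only, 251 with no filter, 25 without the robust option, 134 with DESeq2 and 8 to 36 with 1 mouse left out (8 without control replicate 2 or 4, and 26, 13 and 17 without zinc deficient replicates 1, 2 and 4). The cause of these changes was not tested.

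Samples with the same number had low positive correlations across genes (0.0254 to 0.0900), and samples with different numbers had -0.177 to 0.145. Control replicates 1, 2 and 4 correlated best with their own number, and control replicate 3 with zinc deficient replicate 4. The replicate block pairs mice by number, and these values do not settle whether the numbers mark pairs. The block gave 53 called genes. Of 150 refitted log2 fold changes of the 10 genes, 128 kept direction and side of the threshold, 4 (Psat1) passed it and 18 turned sign, none of them called. With library size only, Atf4 was at -0.32, Atf5 at -0.40, Asns at -0.14, Phgdh at -0.051 and Ppp1r15a at -0.16. Atf5 was at -0.024 with the block, and Chac1 at 0.0078 with DESeq2 size factors and 0.014 in DESeq2. With 1 mouse left out, the ranges that crossed 0 were -0.022 to 0.12 for Atf4, -0.46 to 0.40 for Atf5, -0.41 to 0.37 for Chac1 and -0.048 to 0.42 for Ppp1r15a. Counts per mouse were 11 to 53 for Ddit3, 14 to 89 for Trib3 and 28 to 209 for Atf5. The part of low counts in the width of their intervals was not tested.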
